A study of Mus musculus with 12 samples.

Results

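Wild-type epiblast-like cells (EpiLC) were compared with embryonic stem cells (ESC) that lack Sirt1 (Sirt1KO), gene by gene, in 3 libraries of each. The members of the comparison were the named loci with at least 1 FPKM (fragment count normalised to locus length and library size) in at least 3 of these 6 libraries. There were 11753 of them, out of 23136 named loci and 27914 loci in all. All cells came from the C57 Bl/6J mouse strain. EpiLC were wild-type cells induced for 48 h on fibronectin. Their medium held Activin A at 20 ng/ml, Fgf2 at 12 ng/ml and 1% KOSR, a serum replacement. Sirt1KO cells were kept on gelatin in serum-free N2B27 medium with LIF. Kinase inhibitors were added, CHIR99021 against GSK3 at 3 uM and PD0325901 against MEK at 1 uM. The study's other 2 groups of 3 libraries grew in that same naive medium: wild-type ESC, and Sirt1KO cells with Otx2 knocked down (Sirt1KO Otx2KD). Their levels are given beside some genes, without a test. EpiLC and Sirt1KO differ in genotype, medium, substrate and induction at once, so the parts of these cannot be told apart. The labels give neither the deleted part of Sirt1 nor whether the knockout is 1 clone, and they do not say that the replicates were separate cultures. The p-values therefore measure only the spread between libraries, which may be technical.

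ESC in this medium resemble the epiblast before implantation, and EpiLC resemble the epiblast just after it. The move from the one state to the other is driven by FGF, through the kinases MEK and ERK, and by Activin, through SMAD proteins. Cells in transit lose the naive transcription factors, keep Oct4 and Sox2, and gain Otx2 and the de novo DNA methyltransferases. Sirt1 is an NAD-dependent deacetylase of histones and other proteins, and the study set its loss beside this induction.

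The groups were alike in the spread between replicates, while depth varied between libraries. Judged from the smallest FPKM steps, depth ran from 0.826 to 1.24 times that of EpiLC replicate 1, and the median standard deviation (SD) of log2(FPKM + 1) between replicates was 0.0707 in EpiLC and 0.0753 in Sirt1KO. Sirt1 itself, whose deposited value covers the whole gene, stood at 32, 34.5 and 33.1 FPKM in EpiLC and 15.3, 15.3 and 15.7 FPKM in Sirt1KO. The groups did not overlap, and the knockout libraries kept a fraction of the EpiLC level (25.8 FPKM in ESC). Pou5f1 (Oct4), the defining factor of both cell states, stood at 625, 595 and 592 FPKM in EpiLC and 670.1, 655 and 655 FPKM in Sirt1KO. Its difference of -0.13 ± 0.03 on the log2 scale turned to 0.19 under quantile normalization. Sox2, its partner, averaged 155 and 169 FPKM (difference -0.12 ± 0.05). That small difference was called with all libraries but not without EpiLC replicate 1 (adjusted p = 0.115), Sirt1KO replicate 2 (0.0959) or Sirt1KO replicate 3 (0.0882). Markers of fibroblasts, such as those of a feeder layer, differed between the groups and are given with the matrix genes below. Y-linked genes summed to between 7.97 and 10.2 FPKM in EpiLC, 0.0872 to 0.220 in Sirt1KO and 48.5 to 52.5 in ESC, so the groups also differed in Y-linked transcripts. Their part in the results was not tested.

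Differences are given as EpiLC minus Sirt1KO of the mean log2(FPKM + 1) with their standard error, and a locus was called where limma's Benjamini-Hochberg adjusted p was under 0.05. This scale understates changes of genes near or under 1 FPKM. Of all tested loci, 8301 were called (70.6%), 4104 higher in EpiLC (34.9%) and 4197 lower (35.7%), and each count of list members below is to be read against these shares. Calls of at least 1 log2 unit were far fewer: 1164 loci (9.9%), 565 higher (4.81%) and 599 lower (5.1%). The 6 libraries did not overlap between the groups at 73.7% of loci, with EpiLC above at 36.6% and below at 37.1%. The median difference was -0.01, the median absolute difference 0.32 and the median standard error 0.07. Large losses outnumbered large gains: 130 loci were lower by at least 2 log2 units against 63 higher, and 32 were lower by at least 3 against 9 higher. These counts depend on the treatment of low values and of unnamed loci: a pseudocount of 0.1 gave 266 lower against 184 higher by at least 2 and 118 against 51 by at least 3, and with unnamed loci included they were 214 against 126 and 72 against 30. A pseudocount of 0.5 gave 189 against 100 and 52 against 18. At the other end, the 95% interval of the difference lay within 0.5 log2 unit of 0 at 6000 loci (51.1%). The filter admitted 699 loci with exactly 3 libraries at 1 FPKM or more. For 343 of those the libraries were the 3 of EpiLC and for 268 the 3 of Sirt1KO, so that these loci entered through 1 group alone. The median of the highest of the 6 values was 2.08 FPKM at this limit and 1.30 FPKM at the 246 loci with 2 such libraries, which were left out.

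**Figure D1:**
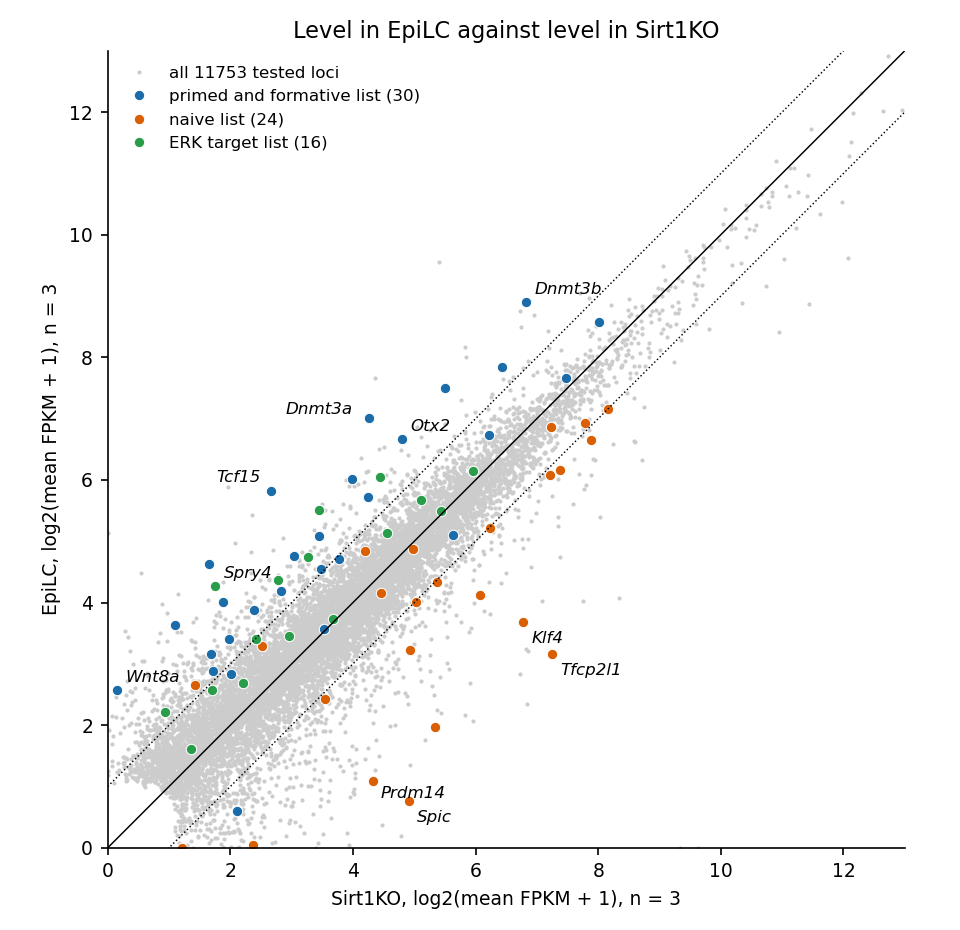
Mean FPKM of each tested locus in Sirt1KO (x axis) and EpiLC (y axis), both as log2(mean FPKM + 1) over 3 libraries. The solid line marks equal levels and the dotted lines 1 log2 unit. Members of the primed and formative list and of the ERK target list lie mostly above the line, and naive list members such as Tfcp2l1, Klf4, Spic and Prdm14 lie far below it.

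The largest gains of EpiLC were in genes of varied function. Tcf15, a basic helix-loop-helix factor linked to exit from the naive state, stood at 54.4, 55.4 and 57.2 FPKM in EpiLC and 7.65, 4.77 and 3.51 FPKM in Sirt1KO (difference 3.22 ± 0.28, limma adjusted p = 5.44e-06). The EpiLC values were tight and the Sirt1KO values, though spread, were all far lower. Wt1, a zinc-finger factor of the developing kidney and gonad, stood at 10.5, 9.69 and 9.52 FPKM in EpiLC and 0.457, 0.143 and 0.177 FPKM in Sirt1KO (difference 3.12 ± 0.10, limma adjusted p = 8.82e-12). Every Sirt1KO library was under 1 FPKM, as was the mean of ESC (0.0912 FPKM). Nt5e, which encodes the ecto-enzyme CD73, showed the same pattern at 6.98 FPKM in EpiLC, 0.327 in Sirt1KO and 0.205 in ESC (difference 2.59 ± 0.09). Porcn, the acyltransferase that Wnt ligands need for secretion, stood at 14.8, 14.6 and 14.8 FPKM in EpiLC and 0.852, 0.847 and 0.822 FPKM in Sirt1KO (difference 3.09 ± 0.09, limma adjusted p = 2.31e-12). Here ESC lay with EpiLC, at 14.4 FPKM, and the Sirt1KO libraries were the low ones. Lef1, a nuclear partner of beta-catenin, also had its lowest level of the 3 in Sirt1KO: 23.9 FPKM in EpiLC, 2.15 in Sirt1KO and 11.3 in ESC (difference 2.99 ± 0.11). Egln3, an oxygen-sensing prolyl hydroxylase, followed this order too, with 30.5, 3.21 and 12.5 FPKM (difference 2.90 ± 0.08), as did Ccnd2, which encodes cyclin D2, with 9.28, 0.758 and 3.44 FPKM (difference 2.55 ± 0.09). Fgf15, an FGF of the early nervous system, rose to 11.5 FPKM against 1.14 in Sirt1KO (difference 2.56 ± 0.13), and Cxcl12, a chemokine, to 17.8 against 2.3 (difference 2.54 ± 0.15). Nphs1, which encodes nephrin of the kidney filter, reached 10.4 FPKM against 0.803 (difference 2.66 ± 0.09). The remaining places among the 15 largest gains went to the matrix genes Bgn, Mgp and Tnc, to Dnmt3a and to Spry4, which are described with their groups.

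The largest losses were larger than the largest gains. Trpm1, a cation channel of retina and melanocytes, stood at 0.153, 0.0829 and 0.185 FPKM in EpiLC and 22.4, 27.5 and 29.6 FPKM in Sirt1KO (difference -4.58 ± 0.10, limma adjusted p = 1.9e-13). All EpiLC libraries were near 0 and all Sirt1KO libraries were above the ESC mean of 6.62 FPKM. Mitf, the transcription factor best known from the melanocyte lineage, had the same order with 0.797, 0.965 and 0.915 FPKM in EpiLC and 20.1, 24.4 and 24.9 FPKM in Sirt1KO (difference -3.67 ± 0.09, limma adjusted p = 5.91e-13) and 9.28 FPKM in ESC. Ckb, the brain-type creatine kinase, stood at 16.5, 15.6 and 15.6 FPKM in EpiLC and 295, 335 and 339.7 FPKM in Sirt1KO (difference -4.26 ± 0.05, limma adjusted p = 2.68e-16). ESC averaged 493 FPKM, so Sirt1KO lay between the wild-type states, and Sirt1KO Otx2KD averaged 724 FPKM. Cyp1a1, the cytochrome P450 induced through the aryl hydrocarbon receptor, averaged 14.4 FPKM in Sirt1KO, 3.18 in ESC and 0.0331 in EpiLC, where 1 library was listed at 0. Epha4, an ephrin receptor, averaged 2.37, 34.9 and 6.26 FPKM in EpiLC, Sirt1KO and ESC (difference -3.41 ± 0.08). Serpinb6c, a serpin, averaged 0.29, 21.3 and 10.5 FPKM (difference -4.10 ± 0.10), and Ppp1r14d, a phosphatase inhibitor listed at 0 in 2 EpiLC libraries, averaged 14 FPKM in Sirt1KO and 3.3 in ESC. Trpm1, Mitf, Cyp1a1, Epha4, Serpinb6c and Ppp1r14d thus had their highest mean of these 3 groups in Sirt1KO. Jam2, a junctional adhesion molecule, was at 55.7 and 3.5 FPKM (difference -3.65 ± 0.07), and Aqp3, a water and glycerol channel, at 29.4 and 1.56 (difference -3.56 ± 0.05).

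**Figure D2:**
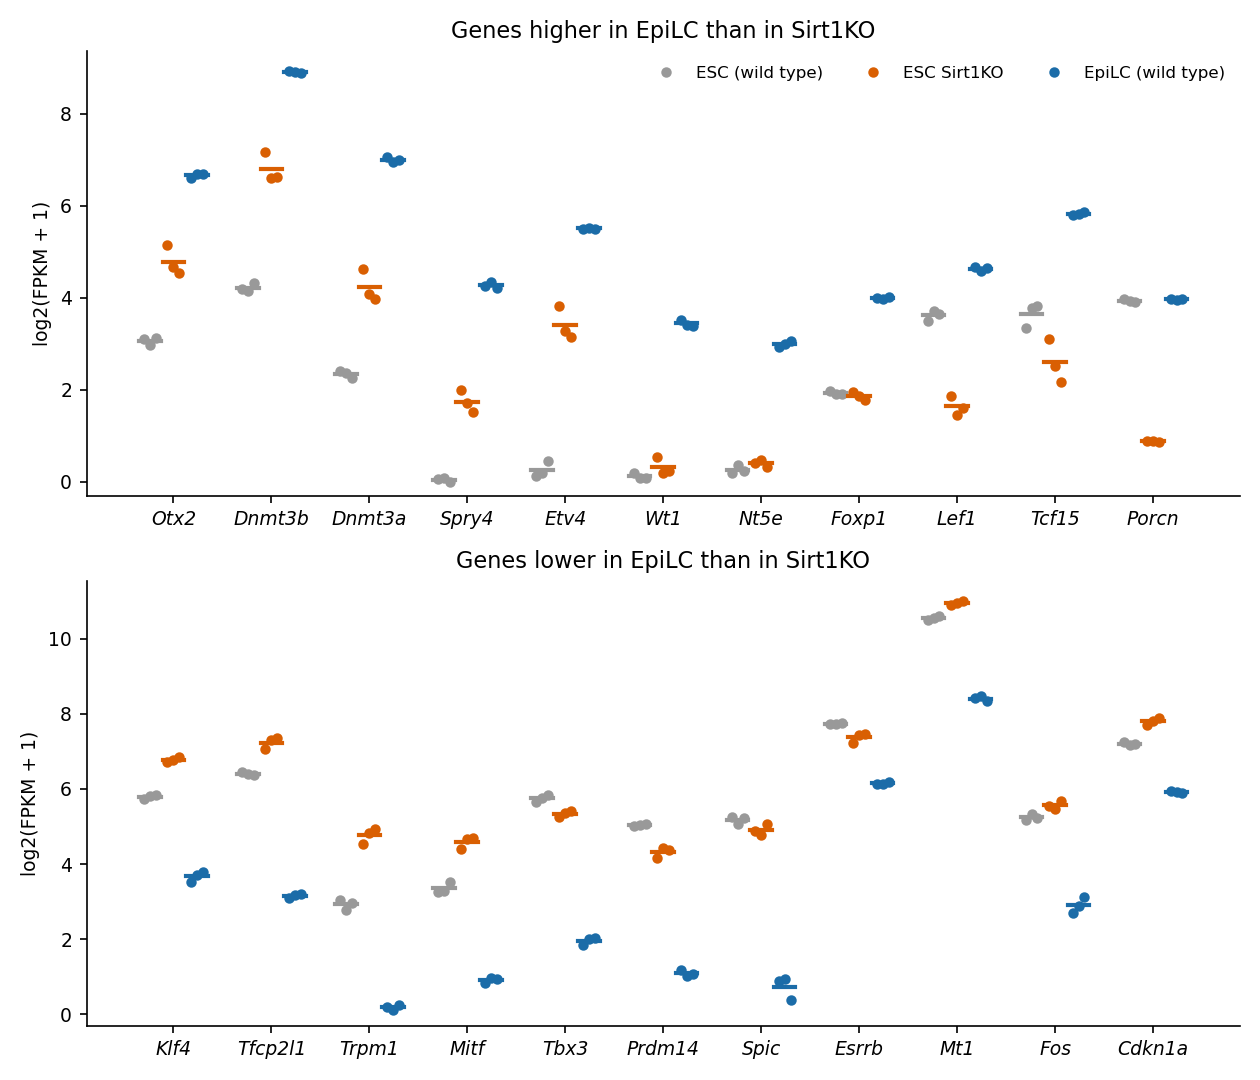
log2(FPKM + 1) of selected genes in each library (points) with the group mean (bar) for ESC, Sirt1KO and EpiLC, 3 libraries each. Otx2, Dnmt3b, Dnmt3a, Spry4 and Etv4 have Sirt1KO between ESC and EpiLC, Wt1, Nt5e and Foxp1 have it near ESC, and Lef1, Tcf15 and Porcn have it below both; Klf4, Tfcp2l1, Trpm1 and Mitf have it above both.

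Genes of the primed and formative epiblast were mostly higher in EpiLC. Of the 30 tested, 27 were called higher in EpiLC (90%, beside 34.9% of all tested loci) and 2 lower, with a median difference of 1.49 beside -0.01 over all tested loci. Otx2, the homeobox factor of the formative epiblast, stood at 96.3, 102 and 102 FPKM in EpiLC and 34.2, 24.6 and 22.2 FPKM in Sirt1KO (difference 1.88 ± 0.12, limma adjusted p = 2.83e-08). The groups did not overlap, and every Sirt1KO library was above the ESC mean of 7.38 FPKM. The de novo DNA methyltransferases followed the same order. Dnmt3b stood at 483, 477 and 472 FPKM in EpiLC and 143, 96.4 and 97.6 FPKM in Sirt1KO (difference 2.10 ± 0.13, limma adjusted p = 1.66e-07), against 17.7 FPKM in ESC. Dnmt3a stood at 132, 123 and 127 FPKM in EpiLC and 23.8, 16 and 14.6 FPKM in Sirt1KO (difference 2.77 ± 0.13, limma adjusted p = 2.83e-09), against 4.06 FPKM in ESC. In all of Otx2, Dnmt3b and Dnmt3a, Sirt1KO replicate 1 was the highest of the 3 knockout libraries. Pou3f1 (Oct6), a POU factor of the formative state, averaged 33, 9.93 and 1.34 FPKM in EpiLC, Sirt1KO and ESC (difference 1.65 ± 0.11). The classic marker Fgf5 stood at 7.2, 5.87 and 5.28 FPKM in EpiLC and 4.35, 2.3 and 2.41 FPKM in Sirt1KO (difference 0.85 ± 0.16, limma adjusted p = 0.000327) with 0.186 FPKM in ESC. It was low in both groups, and the highest Sirt1KO library was close to the EpiLC range.

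Other formative genes were at or below the ESC level in Sirt1KO. Foxp1, a forkhead factor, stood at 15.1, 14.8 and 15.3 FPKM in EpiLC and 2.89, 2.67 and 2.45 FPKM in Sirt1KO (difference 2.13 ± 0.07, limma adjusted p = 7.56e-12) with 2.82 FPKM in ESC. Wnt8a, a Wnt ligand of the early embryo, averaged 4.96, 0.114 and 0.952 FPKM in EpiLC, Sirt1KO and ESC (difference 2.42 ± 0.11). For these genes the knockout was not intermediate between the wild-type states. Foxd3, which is known in both states, gave 0.05 ± 0.08 with a 95% interval of -0.13 to 0.22, the 1 tested member that was not called. The 2 members called lower were Nodal (-0.53 ± 0.06) and Nkx1-2 (-1.51 ± 0.13).

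Replicate 1 of Sirt1KO stood apart within its group on these genes. It was the highest of the 3 knockout libraries for 23 of the 30 primed and formative genes and the lowest for 20 of the 24 naive genes, beside 35.7% and 39.5% over all tested loci. Without it, the counts were again 27 higher among the primed and formative genes and 20 lower among the naive ones.

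Pim2, a survival kinase on that list that was picked for its promoter after its values were seen, stood at 185, 182 and 171 FPKM in EpiLC and 57.6, 38.2 and 36.5 FPKM in Sirt1KO (difference 2.03 ± 0.17, limma adjusted p = 2.94e-06), with 21.7 FPKM in ESC. Its groups were far apart, with Sirt1KO replicate 1 again the highest knockout library. Its promoter (RefSeq, GRCm38.p6, chrX:7878056-7878355, plus strand, 300 bases around the start) is shown because it holds 2 matches to ATGCAAAT, the octamer bound by POU factors such as Oct4, searched on both strands and set in capitals.
Pim2: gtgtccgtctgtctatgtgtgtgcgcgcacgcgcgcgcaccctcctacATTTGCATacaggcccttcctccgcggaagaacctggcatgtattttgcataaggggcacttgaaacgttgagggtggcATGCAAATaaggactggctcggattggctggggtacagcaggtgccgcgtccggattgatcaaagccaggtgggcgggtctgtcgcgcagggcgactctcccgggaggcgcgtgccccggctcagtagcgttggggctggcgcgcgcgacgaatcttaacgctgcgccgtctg
The octamer was present in 1.74% of all 32851 promoters of this table and in 1.39% of the 10520 promoters of tested genes. It was present in 3.29% of the promoters of genes higher in EpiLC by at least 1 log2 unit and in 1.82% of those lower by as much. A match is a description of the letters and says nothing of binding.

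Genes of the naive network were mostly lower in EpiLC. Of 24 tested members, 20 were called lower in EpiLC (83.3%, beside 35.7% of all tested loci) and 3 higher, with a median of -1.13. Tfcp2l1, a grainyhead-family factor downstream of LIF, stood at 7.59, 7.97 and 8.18 FPKM in EpiLC and 132, 156 and 163 FPKM in Sirt1KO (difference -4.08 ± 0.06, limma adjusted p = 1.01e-14). All Sirt1KO libraries exceeded the ESC mean of 84 FPKM. Klf4, a Kruppel-like factor of the same network, behaved alike with 10.5, 12.2 and 12.9 FPKM in EpiLC and 103, 107 and 114 FPKM in Sirt1KO (difference -3.09 ± 0.06, limma adjusted p = 1e-13) and 54.4 FPKM in ESC. For both, the knockout was farther from EpiLC than wild-type ESC was. Prdm14, which represses FGF signalling and DNA methylation, stood at 1.28, 1.02 and 1.09 FPKM in EpiLC and 16.9, 20.4 and 19.6 FPKM in Sirt1KO (difference -3.23 ± 0.07, limma adjusted p = 1.72e-13), and ESC was higher still at 31.9 FPKM. Tbx3, a T-box factor, stood at 2.57, 3.05 and 3.13 FPKM in EpiLC and 37.2, 39.8 and 41.3 FPKM in Sirt1KO (difference -3.37 ± 0.06, limma adjusted p = 5.17e-14), and Spic, an ETS factor, averaged 0.691 and 29 FPKM (difference -4.17 ± 0.13). The widely used markers Zfp42 (Rex1) and Esrrb were lower by less: 99.6 against 235 FPKM for Zfp42 (difference -1.23 ± 0.04) and 70.4 against 166 FPKM for Esrrb (difference -1.22 ± 0.05). Nanog is deposited in a merged locus with Nanogpd, outside the list, at 90.5, 96.5 and 104 FPKM in EpiLC and 347, 395 and 422 FPKM in Sirt1KO. The member that was not called was Nr0b1 (Dax1), with -0.11 ± 0.06 and an interval of -0.24 to 0.02. By limma it was called lower without EpiLC replicate 3 (-0.17, adjusted p = 0.0248) and with chromosome medians removed (-0.225, adjusted p = 0.00439). The 3 members called higher were Mael (1.24 ± 0.14), Gbx2 (0.77 ± 0.11) and Manba (0.65 ± 0.05).

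Factors shared by both pluripotent states, 19 tested, were all called. Of these, 13 were higher in EpiLC and 6 lower (beside 34.9% and 35.7% of all tested loci), with a median of 0.24. Lin28a and Lin28b, RNA-binding proteins that block let-7 maturation, were both higher. Lin28a averaged 195 FPKM against 92 in Sirt1KO and 20.6 in ESC (difference 1.08 ± 0.07), and Lin28b 20.5 against 6.64 and 2.41 (difference 1.50 ± 0.09). Utf1, a chromatin-bound factor of pluripotent cells, averaged 412 FPKM against 123 and 36.8 (difference 1.77 ± 0.16). In these 3 genes the knockout lay between ESC and EpiLC. Dppa2, a chromatin factor of pluripotent cells, did not follow this order: it averaged 24.6 FPKM in EpiLC, 7.67 in Sirt1KO and 18.6 in ESC (difference 1.57 ± 0.07). Fbxo15, an F-box protein of ESC, fell the most, from 161 FPKM in Sirt1KO to 41.1 in EpiLC (difference -1.94 ± 0.06).

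**Figure D3:**
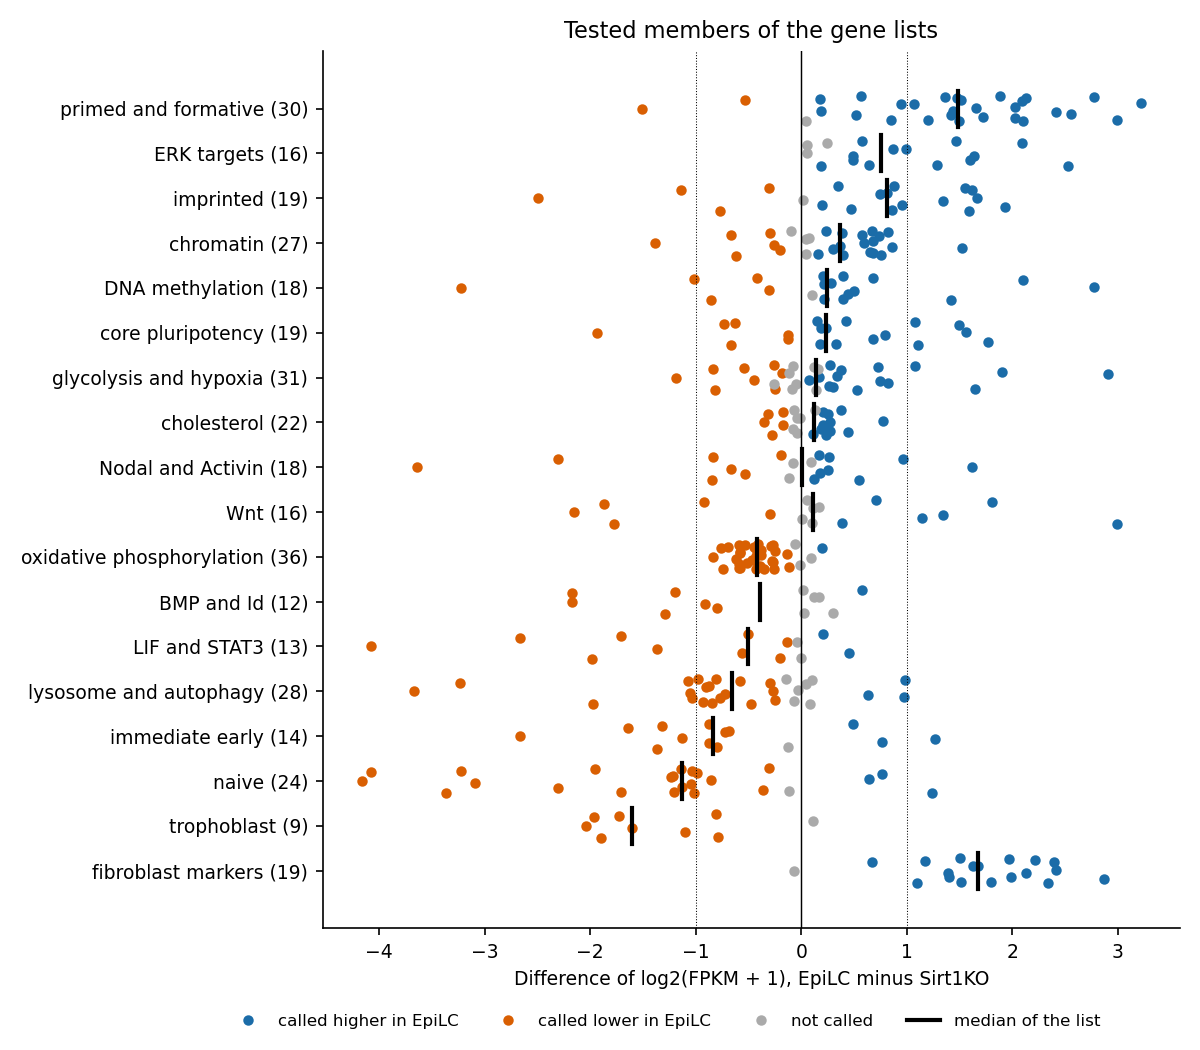
Difference of log2(FPKM + 1), EpiLC minus Sirt1KO, of every tested member of 18 gene lists (points, spread vertically for legibility), coloured by call, with the list median (black bar) and the number of tested members in brackets. The primed and formative, ERK target and fibroblast marker lists lie to the right of 0, and the oxidative phosphorylation, lysosome, immediate early, naive and trophoblast lists to the left.

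The targets of FGF and ERK signalling were higher in EpiLC, which received Fgf2 while Sirt1KO cells received a MEK inhibitor. Of 16 tested ERK targets, most of them feedback inhibitors, 13 were called higher (81.2%, beside 34.9% of all tested loci) and 0 lower by limma, also at an unadjusted p under 0.05, with a median of 0.76. Spry4, an inhibitor of receptor tyrosine kinase signalling, stood at 18, 19.4 and 17.6 FPKM in EpiLC and 2.99, 2.28 and 1.87 FPKM in Sirt1KO (difference 2.53 ± 0.10, limma adjusted p = 7.61e-11). The knockout libraries were low but above the ESC mean of 0.0379 FPKM. Etv4, an ETS factor induced by FGF, stood at 44.4, 44.9 and 44.3 FPKM in EpiLC and 13, 8.77 and 7.88 FPKM in Sirt1KO (difference 2.09 ± 0.14, limma adjusted p = 1.82e-08) with 0.201 FPKM in ESC. Dusp6, the phosphatase that switches off ERK, averaged 65.5, 20.8 and 4.96 FPKM in EpiLC, Sirt1KO and ESC (difference 1.64 ± 0.14). Spred1, another inhibitor, averaged 25.7, 8.65 and 2.56 FPKM (difference 1.47 ± 0.08). Spry4, Etv4, Dusp6 and Spred1 thus shared an order with the knockout in the middle. Spred2 did not: its level was 19.6 FPKM in EpiLC, 5.83 in Sirt1KO and 14 in ESC (difference 1.60 ± 0.08). Dusp4, a nuclear ERK phosphatase, stood at 35.1, 34.9 and 31.9 FPKM in EpiLC and 32.6, 19.2 and 15.4 FPKM in Sirt1KO (difference 0.65 ± 0.20, limma adjusted p = 0.0144) with 0.566 FPKM in ESC. Its groups overlapped: Sirt1KO replicate 1 was inside the EpiLC range, and with only these 6 libraries in the fit it was not called (adjusted p = 0.12), nor was it without Sirt1KO replicate 2 (0.57, adjusted p = 0.0505). Replicate 1 was the highest knockout library for 13 of the 16 ERK targets. Ccnd1, cyclin D1, was not called (0.06 ± 0.05, interval -0.05 to 0.16).

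Of 14 tested FGF ligands, receptors and intracellular signalling proteins, 7 were called higher and 4 lower (beside 34.9% and 35.7% of all tested loci). The 3 that were not called, Grb2, Ptpn11 and Sos1, are intracellular. Fgfr1, the main receptor of these cells, averaged 32.1 against 18.8 FPKM (difference 0.74 ± 0.05). Fgf4, the ligand that ESC make themselves, averaged 116 against 149 FPKM (difference -0.36 ± 0.04). Fgf10 and Fgf17 were higher in Sirt1KO than in both wild-type groups: Fgf10 averaged 0.0918, 3.5 and 0.346 FPKM in EpiLC, Sirt1KO and ESC, and Fgf17 3.17, 9.11 and 3.02. The differences were -2.04 ± 0.09 for Fgf10 and -1.28 ± 0.10 for Fgf17.

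Immediate early genes, which growth factors and stress induce within minutes through ERK and other kinases, went the other way. Of 14 tested, 10 were called lower in EpiLC (beside 35.7% of all tested loci) and 3 higher, with a median of -0.83. Fos stood at 5.49, 6.39 and 7.71 FPKM in EpiLC and 46, 43.2 and 50.1 FPKM in Sirt1KO (difference -2.66 ± 0.10, limma adjusted p = 4.6e-11). Its groups were far apart, and ESC averaged 36.9 FPKM. Jun, its partner in AP-1, averaged 2.76 against 10.7 FPKM (difference -1.64 ± 0.09), and Junb 5.34 against 15.3 FPKM (difference -1.37 ± 0.10). Egr2, a zinc-finger factor of the same class, averaged 0.239 against 2.09 FPKM (difference -1.32 ± 0.10), and Btg2, an antiproliferative gene, 22 against 49.5 FPKM (difference -1.13 ± 0.04). The members called higher included Myc, with 8.5 FPKM in EpiLC, 2.96 in Sirt1KO and 1.38 in ESC (difference 1.27 ± 0.15).

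Genes of LIF and STAT3 signalling were mostly lower in EpiLC, whose medium as labelled names no LIF. Of 13 tested, 9 were called lower (beside 35.7% of all tested loci) and 2 higher (beside 34.9%), with a median of -0.50. Stat3, the transcription factor of the pathway, stood at 6.03, 6.96 and 5.93 FPKM in EpiLC and 21.9, 23.1 and 23.7 FPKM in Sirt1KO (difference -1.71 ± 0.06, limma adjusted p = 1.53e-11). Socs3, its feedback inhibitor, stood at 7.32, 7.32 and 7.46 FPKM in EpiLC and 28.9, 33 and 34.7 FPKM in Sirt1KO (difference -1.98 ± 0.07, limma adjusted p = 1.53e-11), and Bcl3, a target, averaged 1.61 against 15.5 FPKM (difference -2.66 ± 0.08). In these 3 genes no EpiLC library reached any Sirt1KO library. The receptor genes differed little by comparison: Lifr gave -0.04 ± 0.06 with an interval of -0.17 to 0.08 and was not called.

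Wnt genes were called about as often as all tested loci. Of 16 tested, 6 were called higher (37.5%, beside 34.9%) and 5 lower (31.2%, beside 35.7%), with a median of 0.11. Beside Lef1, the nuclear factor Tcf7 was higher (44.6 against 19.6 FPKM, difference 1.15 ± 0.06), as was the receptor Fzd7 (61.7 against 17.1 FPKM, difference 1.81 ± 0.11). The secreted Wnt inhibitor Notum stood at 4.83, 4.85 and 4.6 FPKM in EpiLC and 22.2, 25.3 and 26.6 FPKM in Sirt1KO (difference -2.15 ± 0.07, limma adjusted p = 7.32e-12), and ESC were higher still at 82.7 FPKM. Sp5, a direct beta-catenin target, averaged 0.0422 against 2.58 FPKM (difference -1.78 ± 0.12). Axin2, the usual reporter of the pathway, was lower by -0.29 ± 0.07. The GSK3 inhibitor, which stabilises beta-catenin, was in the Sirt1KO medium only.

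In the Nodal and Activin pathway, 8 of 18 tested genes were called higher (44.4%, beside 34.9% of all tested loci) and 7 lower (38.9%, beside 35.7%). Leaving out Sirt1KO replicate 2 gave 5 higher. The feedback inhibitors Lefty2 and Lefty1 were lower in EpiLC, whose medium held Activin A, than in Sirt1KO. ESC averaged 92.7 FPKM for Lefty2 and 25.7 FPKM for Lefty1. The part of the medium was not tested. Lefty2 stood at 9.23, 7.84 and 7.69 FPKM in EpiLC and 104, 120.3 and 120.1 FPKM in Sirt1KO (difference -3.64 ± 0.07, limma adjusted p = 5.17e-14), and Lefty1 averaged 20.5 against 37.5 FPKM (difference -0.84 ± 0.06). Pcsk6, a protease that matures Nodal, averaged 4.79 against 27.7 FPKM (difference -2.31 ± 0.06). Skil, a SMAD corepressor, was higher, with 46.8 against 14.5 FPKM (difference 1.62 ± 0.05), as was the receptor Acvr2b (13.6 against 6.47 FPKM, difference 0.97 ± 0.06). Among BMP genes, 6 of 12 tested were called lower (beside 35.7% of all tested loci) and 1 higher (beside 34.9%), with a median of -0.39. Leaving out EpiLC replicate 1 gave 2 higher. The lower ones included the inhibitors of differentiation Id2 (3.97 against 21.4 FPKM, difference -2.17 ± 0.10), Id3 (6.96 against 18.5 FPKM, difference -1.29 ± 0.10) and Id4 (1.03 against 7.87 FPKM, difference -2.17 ± 0.18), which are the usual targets of BMP.

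Among 18 tested genes of DNA methylation, 12 were called higher and 5 lower (beside 34.9% and 35.7% of all tested loci), with a median of 0.25. Beside Dnmt3a and Dnmt3b, the cofactor Dnmt3l averaged 229 FPKM against 85.7 in Sirt1KO and 5.68 in ESC (difference 1.42 ± 0.11). Ehmt1 (GLP), a histone H3 lysine 9 methyltransferase, was higher by 0.68 ± 0.05. Dppa3 (Stella), which keeps the maintenance machinery off chromatin, averaged 36.3, 74.5 and 232 FPKM in EpiLC, Sirt1KO and ESC (difference -1.02 ± 0.04), and Zfp57, which protects imprints, 120.5, 218 and 249 FPKM (difference -0.85 ± 0.05). Of 27 tested chromatin genes, 17 were called higher and 6 lower (beside the same shares), with a median of 0.37. Chd7, a remodeller of developmental enhancers, averaged 7.34 against 1.91 FPKM (difference 1.52 ± 0.08), and Jarid2, a partner of Polycomb complex PRC2, 73.3 against 40 FPKM (difference 0.86 ± 0.03). The PRC2 subunit Eed was lower by -0.66 ± 0.04, and Kdm3a, an H3 lysine 9 demethylase, averaged 15.2 against 41.3 FPKM (difference -1.38 ± 0.04).

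Imprinted genes, which are expressed from 1 parental copy, were mostly higher in EpiLC. Of 19 tested, 14 were called higher (beside 34.9% of all tested loci) and 4 lower (beside 35.7%), with a median of 0.81. Igf2, a growth factor, stood at 9.33, 9.22 and 9.18 FPKM in EpiLC and 1.9, 1.59 and 1.57 FPKM in Sirt1KO (difference 1.93 ± 0.07, limma adjusted p = 1.29e-11), and its neighbour H19 averaged 19.9 against 5.82 FPKM (difference 1.62 ± 0.09). Both were higher still in ESC, at 16.9 FPKM for Igf2 and 40.2 FPKM for H19, and in Sirt1KO Otx2KD, at 20.0 FPKM for Igf2 and 41.5 FPKM for H19, so Sirt1KO was the low group of the 4. The summed fibroblast markers given below had this order of groups too, and their part in these values was not tested. Peg10, derived from a retrotransposon, averaged 17.6, 4.91 and 4.3 FPKM in EpiLC, Sirt1KO and ESC (difference 1.66 ± 0.08). Grb10, a brake on insulin signalling, averaged 66.9, 22.3 and 19.4 FPKM (difference 1.55 ± 0.08), and Cdkn1c, a cell cycle inhibitor, 16.3, 5.87 and 4.73 FPKM (difference 1.34 ± 0.08). For these the knockout was near ESC. Plagl1 went the other way, with 0.375 FPKM in EpiLC against 6.82 in Sirt1KO (difference -2.50 ± 0.11). The noncoding RNAs of the Dlk1-Dio3 region are deposited under merged names and were noticed after their values were seen. The locus of Meg3 with 2 microRNAs stood at 22.3, 20.2 and 21.4 FPKM in EpiLC and 0.518, 0.332 and 0.505 FPKM in Sirt1KO, with means of 31.0 in ESC and 8.97 in Sirt1KO Otx2KD. The locus of Rian stood at 10.4, 11.5 and 9.99 FPKM in EpiLC and 0.287, 0.161 and 0.213 FPKM in Sirt1KO, with means of 19.7 in ESC and 2.69 in Sirt1KO Otx2KD. The 3 Sirt1KO libraries were under 1 FPKM at both loci, and the other 3 groups were above them.

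Lineage genes were sparse: of 16 mesendoderm genes only 3 passed the filter, and of 14 genes of the 2-cell-like state only Eif1a did (-0.52 ± 0.04), whose copies may share reads. Gsc, a node factor, averaged 0.196 FPKM in EpiLC against 3.06 in Sirt1KO and 12.6 in ESC (difference -1.77 ± 0.09). Of 7 tested neuroectoderm genes 5 were called higher and 2 lower (beside 34.9% and 35.7% of all tested loci). Pax6, an eye and forebrain factor, averaged 3.39 against 0.095 FPKM (difference 2.00 ± 0.14), and Sox1, the first neural SoxB1 factor, 4.45 against 1.04 (difference 1.42 ± 0.10), both under 5 FPKM. Hesx1, a homeobox gene of the anterior embryo, was the largest loss on that list, at 0, 0.159 and 0 FPKM in EpiLC and 7.88, 10.9 and 10.4 FPKM in Sirt1KO (difference -3.34 ± 0.10, limma adjusted p = 4.94e-12). Of 16 trophoblast genes 7 did not pass the filter. Cdx2, Elf5, Gata3 and Hand1 were among these, with means under 1 FPKM in both groups. Trophoblast genes were lower without exception among those called, 8 of 9 tested (beside 35.7% of all tested loci), with a median of -1.60. All 16 summed to between 30.1 and 32.6 FPKM in EpiLC, 92.4 and 93.9 in Sirt1KO and 111 and 115 in ESC. Tfap2c, an AP-2 factor, averaged 5.88, 27.2 and 80.1 FPKM in EpiLC, Sirt1KO and ESC (difference -2.04 ± 0.07), and Tead4, the effector of the first trophoblast decision, 3.32, 13.3 and 4.0 FPKM (difference -1.73 ± 0.09). The simple-epithelium keratins Krt8 and Krt7 were highest in Sirt1KO: Krt8 averaged 1.63, 8.77 and 2.3 FPKM (difference -1.90 ± 0.10), and Krt7 0.994, 6.78 and 1.93 FPKM (difference -1.97 ± 0.11). Of 12 tested germline genes 7 were called higher and 3 lower (beside 34.9% and 35.7% of all tested loci). Sycp3, of the meiotic chromosome axis, averaged 10.3 against 4.13 FPKM (difference 1.15 ± 0.12), and Prdm1 (Blimp1), of germ cell specification, 1.17 against 4.53 FPKM (difference -1.35 ± 0.12).

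Nuclear genes of oxidative phosphorylation were mostly lower in EpiLC, by small amounts. Of 36 tested, 32 were called lower (beside 35.7% of all tested loci) and 1 higher, with a median of -0.42, and 0 of them differed by 1 log2 unit or more. Quantile normalization gave 28 lower and 4 higher, and leaving out EpiLC replicate 1 gave 2 higher. The largest loss was in Cox5a, a subunit of complex IV, at 248, 249 and 268 FPKM in EpiLC and 432, 456 and 479 FPKM in Sirt1KO (difference -0.83 ± 0.05, limma adjusted p = 1.33e-09). The libraries did not overlap. Sdhb, a subunit of complex II, stood at 84, 87.4 and 85.1 FPKM in EpiLC and 135, 139 and 142 FPKM in Sirt1KO (difference -0.69 ± 0.03, limma adjusted p = 3.35e-10), with no overlap either. Ndufa4, a small respiratory-chain subunit, averaged 272 against 460.2 FPKM (difference -0.76 ± 0.04), and Atp5o, of the ATP synthase, 172 against 258 FPKM (difference -0.58 ± 0.03). Uqcrc1 of complex III was the member called higher (0.20 ± 0.04), and 3 were not called. Sirt1KO replicate 1 was the lowest knockout library for 25 of the 36 genes (69.4%, beside 39.5% over all tested loci).

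Glycolysis and hypoxia genes were mixed, with 15 of 31 tested called higher and 8 lower (beside 34.9% and 35.7% of all tested loci). Their median was 0.14. Pdk1, the kinase that keeps pyruvate out of the mitochondria, stood at 71.7, 67.2 and 69.7 FPKM in EpiLC and 20.8, 17.6 and 15.4 FPKM in Sirt1KO (difference 1.91 ± 0.12, limma adjusted p = 1.49e-08) with 5.68 FPKM in ESC. Bnip3, a mitophagy receptor, averaged 27.2 against 7.98 FPKM (difference 1.65 ± 0.07), and the enolase Eno1 276 against 166 FPKM (difference 0.72 ± 0.04). The lower ones included Hk1, the first enzyme of glycolysis (13 against 31.1 FPKM, difference -1.19 ± 0.07), and the glucose transporter Slc2a3 (231 against 407 FPKM, difference -0.82 ± 0.05).

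Fatty acid genes differed in both directions. Of 18 tested, 5 were called higher and 10 lower (beside 34.9% and 35.7% of all tested loci). The synthesis genes Acaca (8.63 against 4.26 FPKM, difference 0.87 ± 0.07) and Fasn (105 against 71.1 FPKM, difference 0.55 ± 0.04) were higher. Cpt1a, which admits fatty acids to mitochondria, stood at 6.95, 6.8 and 7.9 FPKM in EpiLC and 22.2, 26.1 and 26.3 FPKM in Sirt1KO (difference -1.65 ± 0.07, limma adjusted p = 7.71e-11), and Acadm, a dehydrogenase of beta-oxidation, averaged 28.8 against 59.7 FPKM (difference -1.03 ± 0.05). Fabp3, a fatty acid carrier, averaged 19, 84.2 and 159 FPKM in EpiLC, Sirt1KO and ESC (difference -2.09 ± 0.07). Among other genes of synthesis, Scd1, a desaturase, was lower (-0.65 ± 0.06), while the desaturases Fads1 (0.56 ± 0.05) and Fads2 (0.51 ± 0.04) were higher.

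Cholesterol synthesis differed little. Of 22 tested, 11 were called higher and 5 lower (beside 34.9% and 35.7% of all tested loci), none of them by 1 log2 unit, and 6 were not called. The median was 0.12. Sc4mol (Msmo1), an enzyme of the pathway, averaged 242 and 248 FPKM with 91.4 in ESC, and its difference of -0.04 ± 0.03 had an interval of -0.10 to 0.03, though quantile normalization gave 0.14. Lss, the lanosterol synthase, had the largest difference, with 88.3 against 51.4 FPKM and 24.3 in ESC (0.77 ± 0.05).

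One-carbon genes, 21 tested, were called higher in 10 cases and lower in 6 (beside 34.9% and 35.7% of all tested loci). Gldc, the glycine decarboxylase, averaged 80.6 against 38.8 FPKM (difference 1.04 ± 0.05), and Mthfd2, of mitochondrial folate metabolism, 145 against 103 FPKM (difference 0.49 ± 0.04). Mat2a, which makes S-adenosylmethionine, was lower, with 75.2 against 124 FPKM (difference -0.71 ± 0.04). In the integrated stress response, 12 of 22 tested were called higher and 6 lower (beside 34.9% and 35.7% of all tested loci). Sirt1KO replicate 1 was the highest knockout library for 17 of these 22 (77.3%, beside 35.7% over all tested loci). Ddit4, an mTOR inhibitor, averaged 168 against 76.3 FPKM (difference 1.14 ± 0.09), and Asns, asparagine synthetase, 232 against 382 FPKM (difference -0.72 ± 0.04). Among the other sirtuins, Sirt2 was lower (-0.49 ± 0.06), Sirt6 was lower (-0.20 ± 0.07) but not called without EpiLC replicate 3 (adjusted p = 0.0769), and Sirt3 was not called (0.01 ± 0.08, interval -0.17 to 0.19). Among NAD genes, Cd38, which consumes NAD, averaged 2.27 against 11.3 FPKM (difference -1.90 ± 0.07), and Qprt, of de novo NAD synthesis, 15.7 against 5.59 FPKM (difference 1.35 ± 0.11).

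Among cell cycle genes the largest losses were in the inhibitors Cdkn1a and Cdkn2a, while the inhibitor Cdkn1c was higher (1.34 ± 0.08). Cdkn1a (p21), the inhibitor induced by p53, stood at 60.2, 59.1 and 58.4 FPKM in EpiLC and 207, 225 and 238 FPKM in Sirt1KO (difference -1.89 ± 0.04, limma adjusted p = 2.95e-13), with 147 FPKM in ESC. Its EpiLC values were low and tight and its Sirt1KO values were above the ESC mean. Cdkn2a, the Ink4a and Arf locus, averaged 11.4 against 32.7 FPKM (difference -1.45 ± 0.07). Of 23 tested genes of the G1 phase, 13 were called higher and 6 lower (beside 34.9% and 35.7% of all tested loci). The largest gain among them was in Ccnd2 (2.55 ± 0.09). Of 26 genes of S, G2 and M phase, 15 were called higher and 9 lower (beside 34.9% and 35.7%), none by 1 log2 unit, with a median of 0.11. Quantile normalization gave 4 lower, and removal of the chromosome medians 6. The largest gains among these 26 genes were in Aurkb (0.80 ± 0.05) and Plk1 (0.79 ± 0.06), both mitotic kinases. Among 22 tested p53 targets, 8 were called higher and 11 lower (beside 34.9% and 35.7%). The lower ones included Btg2 and Rrm2b, a ribonucleotide reductase subunit (-0.90 ± 0.09). In the Bcl-2 family, 9 of 16 tested were called higher and 4 lower (beside 34.9% and 35.7%). Mcl1, which protects cells, averaged 216 against 128 FPKM (difference 0.75 ± 0.03), and Bcl2l11 (Bim), which kills them, 9.27 against 3.75 FPKM (difference 1.13 ± 0.11), so members of opposite function rose together.

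Lysosome and autophagy genes were mostly lower in EpiLC. Of 28 tested, 19 were called lower (beside 35.7% of all tested loci) and 3 higher (beside 34.9%), with a median of -0.65. The list includes the transcription factors of the MiT family, which drive these genes by binding CACGTG, an E-box. Mitf was the largest loss, and Tfeb, the master regulator of the group, stood at 2.46, 2.64 and 3.01 FPKM in EpiLC and 14, 12.4 and 14.3 FPKM in Sirt1KO (difference -1.98 ± 0.08, limma adjusted p = 3.85e-11). No EpiLC library of either reached a Sirt1KO library. The third family member, Tfe3, was higher in EpiLC, at 51.4, 51.1 and 51.4 FPKM in EpiLC and 27.9, 23.6 and 24.9 FPKM in Sirt1KO (difference 0.99 ± 0.06, limma adjusted p = 2.07e-09), with 50.9 FPKM in ESC, so Sirt1KO was the low group there. Lamp1, the main protein of the lysosome membrane, stood at 145, 137 and 138 FPKM in EpiLC and 263, 271 and 269 FPKM in Sirt1KO (difference -0.93 ± 0.03, limma adjusted p = 7.71e-12), and Ctsb, a protease of its lumen, averaged 25.8 against 55.5 FPKM (difference -1.07 ± 0.05). Npc2, a cholesterol carrier, averaged 45.3 against 90.3 FPKM (difference -0.98 ± 0.04), and Ctsd, another protease, 116 against 192 FPKM (difference -0.72 ± 0.04). Calcoco2, an autophagy receptor, averaged 5.41, 59.2 and 360.0 FPKM in EpiLC, Sirt1KO and ESC (difference -3.23 ± 0.09), which puts the knockout far below ESC at a gene that EpiLC lost further.

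The promoters of Lamp1 and Ctsd are shown (RefSeq, GRCm38.p6) because they hold 4 and 2 matches to the E-box CACGTG, which reads the same on both strands and is set in capitals. They lie at chr8:13158911-13159210 on the plus strand and chr7:142387778-142388077 on the minus strand.
Lamp1: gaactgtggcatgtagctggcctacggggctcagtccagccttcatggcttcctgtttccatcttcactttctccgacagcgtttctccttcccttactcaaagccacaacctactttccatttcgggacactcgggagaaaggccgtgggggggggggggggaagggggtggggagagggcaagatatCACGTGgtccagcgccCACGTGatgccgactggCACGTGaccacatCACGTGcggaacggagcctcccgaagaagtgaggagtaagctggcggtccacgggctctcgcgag
Ctsd: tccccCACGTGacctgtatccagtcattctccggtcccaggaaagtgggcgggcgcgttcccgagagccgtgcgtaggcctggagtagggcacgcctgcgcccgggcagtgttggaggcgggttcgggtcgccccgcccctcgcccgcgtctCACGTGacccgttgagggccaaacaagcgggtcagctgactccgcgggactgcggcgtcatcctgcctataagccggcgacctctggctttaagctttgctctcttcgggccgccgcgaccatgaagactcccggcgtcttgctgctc
Of the 25 promoters that the table holds for this list, from 20 of its 28 genes, 7 hold the E-box (28%), beside 10.3% of the promoters of tested genes and 7.15% of all promoters. It was present in 7.13% of the promoters of genes higher in EpiLC by at least 1 log2 unit and in 8.56% of those lower by as much. On the cholesterol list, which differed little, 4 of 16 promoters held it (25%). The letters alone say nothing of which factor, if any, is bound.

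Metallothioneins, small proteins that bind zinc and copper, were among the most abundant transcripts that differed. Mt1 stood at 339, 353 and 323 FPKM in EpiLC and 1893, 1987 and 2048 FPKM in Sirt1KO (difference -2.54 ± 0.04, limma adjusted p = 6.21e-15), and Mt2 at 447, 492 and 457 FPKM in EpiLC and 2522, 2838 and 2988 FPKM in Sirt1KO (difference -2.58 ± 0.05, limma adjusted p = 8.29e-13). The libraries of each gene were tight and the groups were several-fold apart, with ESC means of 1504 FPKM for Mt1 and 2374 FPKM for Mt2. Mt4 was listed at 0 in all EpiLC libraries and at 8.52, 9.22 and 10.9 FPKM in Sirt1KO, while Mt3 was not called (0.12 ± 0.31, interval -0.59 to 0.83). All 4 genes lie together on chromosome 8. Slc6a8, the creatine transporter, was lower along with the creatine kinase Ckb, at 10.7 against 29.8 FPKM (difference -1.40 ± 0.05). The promoters of Mt1 (chr8:94178839-94179138, plus strand) and Mt2 (chr8:94172368-94172667, plus strand) are shown because they hold 3 and 4 matches to the metal response core, searched as TGCGCNC or TGCACNC on both strands and set in capitals.
Mt1: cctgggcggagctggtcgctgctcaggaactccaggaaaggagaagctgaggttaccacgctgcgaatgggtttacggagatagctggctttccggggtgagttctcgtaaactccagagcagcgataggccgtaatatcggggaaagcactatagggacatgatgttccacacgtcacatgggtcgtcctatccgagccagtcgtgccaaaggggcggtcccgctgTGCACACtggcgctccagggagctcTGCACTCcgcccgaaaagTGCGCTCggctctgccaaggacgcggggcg
Mt2: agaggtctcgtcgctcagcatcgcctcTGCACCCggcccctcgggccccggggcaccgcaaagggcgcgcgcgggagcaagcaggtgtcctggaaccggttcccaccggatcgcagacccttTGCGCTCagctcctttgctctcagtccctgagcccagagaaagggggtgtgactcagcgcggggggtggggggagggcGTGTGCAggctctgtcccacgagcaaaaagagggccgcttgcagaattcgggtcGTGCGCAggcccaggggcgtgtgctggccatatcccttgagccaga
This short motif was common: 36.6% of the promoters of tested genes and 25.7% of all promoters held at least 1 match.

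Cell adhesion differed by gene rather than as a block. Of 22 tested epithelial genes 6 were called higher and 11 lower (beside 34.9% and 35.7% of all tested loci). Epcam, an adhesion molecule, averaged 162 FPKM against 75.3 in Sirt1KO and 38.3 in ESC (difference 1.10 ± 0.07), and Tjp1 (ZO-1), of the tight junction, 36.3 against 20.5 FPKM (difference 0.80 ± 0.04). Cldn4, a claudin, stood at 33.2, 33.7 and 28.8 FPKM in EpiLC and 119, 113 and 113 FPKM in Sirt1KO (difference -1.82 ± 0.06, limma adjusted p = 1.06e-11), and Tgm1, a transglutaminase of epidermis, averaged 0.842, 15.2 and 0.749 FPKM in EpiLC, Sirt1KO and ESC (difference -3.14 ± 0.12). Tgm1 was thus high in the knockout and near 1 FPKM in both wild-type groups. Cdh1 (E-cadherin) averaged 171 against 204 FPKM (difference -0.25 ± 0.03). Of 13 tested mesenchymal genes 6 were called higher and 6 lower (beside 34.9% and 35.7% of all tested loci), with a median of 0.01. By at least 1 log2 unit, 4 were higher and 2 lower. The 4 higher ones were S100a4 (2.34 ± 0.14), Acta2 (1.80 ± 0.15), S100a6 (1.79 ± 0.12) and Twist1 (1.29 ± 0.12). Acta2 averaged 7.06, 1.34, 16.6 and 18.6 FPKM in EpiLC, Sirt1KO, ESC and Sirt1KO Otx2KD. The 2 lower ones were Ctgf and Cyr61, targets of the Hippo effector YAP. Ctgf averaged 14.9 against 62.1 FPKM (difference -1.99 ± 0.05), and Cyr61 11.8 against 53.1 FPKM (difference -2.09 ± 0.08). Of 22 tested matrix and integrin genes 14 were called higher and 7 lower (beside 34.9% and 35.7%). Itga6, a laminin receptor, averaged 50.6 against 27.5 FPKM (difference 0.86 ± 0.04). Basement membrane genes went both ways: Lamb1 (0.96 ± 0.05) and Col4a1 (1.45 ± 0.09) were higher, and Nid1 (-1.45 ± 0.06) was lower. Sparc, a matrix glycoprotein, stood at 94.4, 94.8 and 96.7 FPKM in EpiLC and 275, 309 and 323 FPKM in Sirt1KO (difference -1.65 ± 0.05, limma adjusted p = 1.59e-12), and Lama1, a laminin chain of the first basement membranes, averaged 0.732 against 6.57 FPKM (difference -2.13 ± 0.07).

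Fibroblast and feeder markers moved with the groups. Of 19 tested, 18 were called higher in EpiLC (beside 34.9% of all tested loci) and 0 lower by limma, also at an unadjusted p under 0.05, with a median of 1.68. The summed FPKM of all 20 markers ran from 145 to 155 in EpiLC, 34.8 to 42.3 in Sirt1KO, 235 to 269 in ESC and 416 to 425 in Sirt1KO Otx2KD. No marker was at 0 in every library of either group. Of the 20 markers, 8 averaged under 1 FPKM in Sirt1KO and 1 in EpiLC. Any marker that passed the filter through EpiLC alone could only be higher there. Col3a1 stood at 15.4, 15.2 and 15.9 FPKM in EpiLC and 2.08, 2.02 and 2.2 FPKM in Sirt1KO (difference 2.41 ± 0.05, limma adjusted p = 2.51e-13), and Col1a2, the partner chain of type I collagen, averaged 10.5 against 1.19 FPKM (difference 2.40 ± 0.08). Postn (periostin) averaged 4.8 against 0.313 FPKM (difference 2.13 ± 0.09). Sirt1KO had the lowest level of all 4 groups in these 3 genes, and EpiLC were below ESC. Bgn (biglycan), with 16.6, 1.21 and 11.2 FPKM in EpiLC, Sirt1KO and ESC, and Tnc (tenascin C), with 8.28, 0.286 and 3.13 FPKM, are matrix genes among the 15 largest gains (differences 3.00 ± 0.08 and 2.85 ± 0.09). Mgp, matrix Gla protein, is one of the markers themselves (13.3 against 0.952 FPKM, difference 2.87 ± 0.13). The part of other cells in these gains was not tested, and in bulk RNA fewer cells of a type and less RNA per cell cannot be told apart. Markers of blood summed to 14.7 to 15.3 FPKM in EpiLC and 50.6 to 55.9 in Sirt1KO. Most of that sum was Laptm5, a lysosomal membrane protein (5.57 against 33.7 FPKM, difference -2.40 ± 0.08), and Cd68, another (7.58 against 18.1 FPKM), while Ptprc (CD45) was at 0 in every Sirt1KO library. Of endothelial markers Cdh5 and Emcn were at 0 in both groups.

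By chromosome, EpiLC and Sirt1KO were alike where both differed from ESC. On chromosome 8 (661 tested loci) the median was 0.42 above ESC in EpiLC and 0.46 above it in Sirt1KO, and EpiLC minus Sirt1KO had a median of -0.05. On chromosome 11 (988 loci) the medians were -0.45 and -0.48 against ESC, and EpiLC minus Sirt1KO gave 0.03. Calls were made on both as often as elsewhere: 70.2% of tested loci on chromosome 8 and 73.2% on chromosome 11, beside 70.6% over all. Chromosomes 1 and X had the largest medians among those with more than 5 tested loci, X leaning to EpiLC (0.11, with 177 loci called higher and 111 lower of 400) and 1 to Sirt1KO (-0.11, with 178 higher and 284 lower of 642). Both were smaller than the median absolute difference of single loci.

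**Figure D4:**
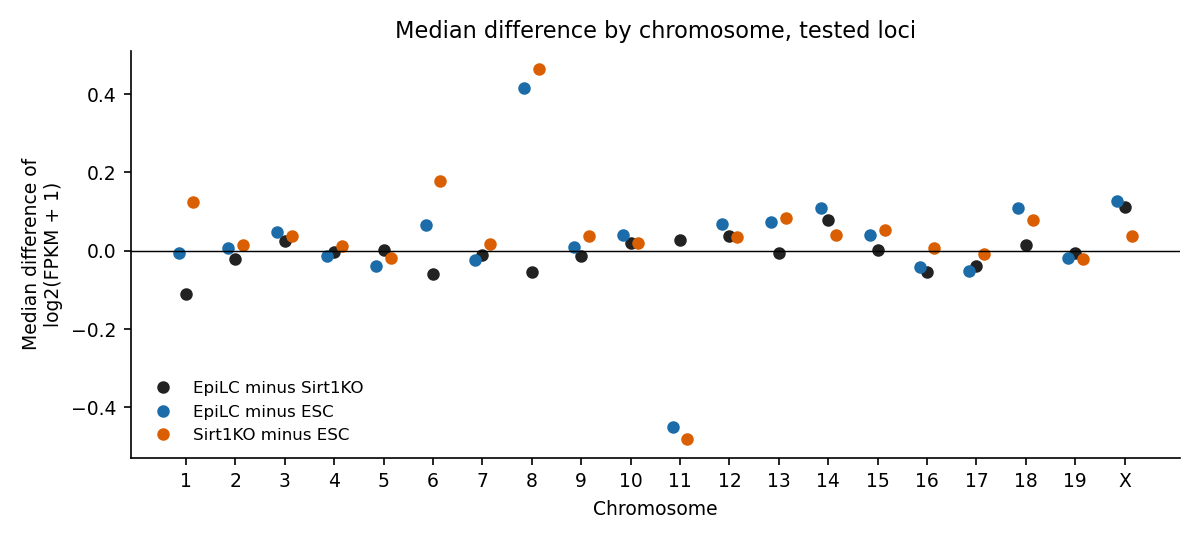
Median difference of log2(FPKM + 1) over the tested loci of each chromosome, for EpiLC minus Sirt1KO (black), EpiLC minus ESC (blue) and Sirt1KO minus ESC (orange). On chromosomes 8 and 11 the blue and orange points move away from 0 together, and the black points stay near 0; the comparisons share groups, so the 3 series are not independent.

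Retinoid genes showed a few large differences among level genes. Of 12 tested, 5 were called higher and 1 lower (beside 34.9% and 35.7% of all tested loci), and 6 were not called. By at least 1 log2 unit, 3 were higher and 1 lower. Rxrg, a nuclear receptor, stood at 4.1, 3.92 and 4.27 FPKM in EpiLC and 0.192, 0 and 0.407 FPKM in Sirt1KO (difference 2.10 ± 0.11, limma adjusted p = 8.25e-10) and was listed at 0 in all ESC libraries. Rarg, a retinoic acid receptor, stood at 93.3, 93.1 and 90.2 FPKM in EpiLC and 27.4, 19.3 and 18.4 FPKM in Sirt1KO (difference 2.06 ± 0.11, limma adjusted p = 1.08e-08) with 30.9 FPKM in ESC. In both genes every Sirt1KO library was well below every EpiLC library. Crabp1, which carries retinoic acid in the cytoplasm, averaged 25.5, 12.1 and 34.6 FPKM in EpiLC, Sirt1KO and ESC (difference 1.03 ± 0.13). Rara, the other receptor of these cells, gave 0.14 ± 0.07 with an interval of -0.02 to 0.30 and was not called.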

How the data were processed

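Polyadenylated RNA (Trizol, oligo-dT, TruSeq, per the labels' protocols) gave single values per locus and library, and TopHat, Cufflinks and Cuffdiff, with the mouse build mm9, are listed per the submitters' processing notes without versions. The authors deposited FPKM. The library-size normalization behind these values is not given in the sources used here. No counts are given, so relative depth alone was estimated, from the most frequent ratio of values under 0.1 FPKM. The 4778 loci without a name hold 95.3% to 96.9% of each FPKM sum and were left out. Among tested loci, 189 combine several gene names and 133 have a symbol that another locus also has. Whether replicates came from separate cultures is not given, so p-values measure the spread between these libraries, which may be technical.

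Groups came from the sample titles. The deposited FPKM were moved to log2(FPKM + 1). All 12 libraries of the series entered 1 linear model with a mean for each of 4 groups and a shared estimate of spread (limma 3.58.1, R 4.3.3, trended and robust variance prior). A locus was called when its Benjamini-Hochberg adjusted p was under 0.05, and intervals are 95%. The fit was tested on simulated data with known differences.

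The 42 gene lists have 865 entries, of which 22 matched no single locus, and 647 different tested loci. Members and lists were chosen with earlier results of these data known, and lists are described without a test. The naming rule took Sirt1, Otx2, Pou5f1 and the markers of both cell states. It also took the 15 largest gains and 15 largest losses with at least 5 FPKM in the higher group and no overlap of libraries (predicted, small RNA, merged and duplicated names left out), up to 6 called members of each list by size of t, and members that were not called. Axin2, Car4, Cdh1, Ctsd, Dnmt3l, Dusp4, Fads1, Gbx2, Manba, Myc, Nkx1-2, Nodal, Pim2, Scd1, Sirt6, Tfe3, Trh, Uqcrc1 and Utf1 are outside it and were chosen after their values were seen. Of 11683 tested symbols, 8182 matched RefSeq promoters (GRCm38.p6). File coordinates are mm9 and were not mixed with these. Alternatives changed the pseudocount, the filter, the normalization, the chromosomes, the libraries and the loci.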

Additional observations from a re-analysis of the deposited data

How the results depend on the processing

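The counts of 4104 loci higher and 4197 lower in EpiLC stayed within 1.5 times under every alternative run. Of those different by at least 1 log2 unit, 565 were higher, and that count became 946 with a pseudocount of 0.1, 373 with a filter of 5 FPKM and 872 with unnamed loci included. The 599 lower loci became 914 with unnamed loci. The added loci and the higher filter change which loci are tested, and a smaller pseudocount widens the differences of low loci. Leaving out each library in turn gave 3857 to 4001 higher and 3937 to 4123 lower, with 528 to 651 and 579 to 620 by at least 1 log2 unit. Quantile normalization turned Pou5f1 to 0.187 and Sc4mol to 0.141, and the cause was not tested. Of 183 named genes followed through the alternatives, 176 kept direction and call under every alternative in which they were tested. Pou5f1 (adjusted p = 0.0803) and Sox2 (0.0741) were not called with unnamed loci included. Sox2 also lost its call under median-of-ratios scaling (0.0568) and quantile normalization (-0.005, 0.934). No counts are given, so how sampling of reads limits low loci could not be computed.

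The replicate number as a block gave 4045 loci higher and 4159 lower, with 565 and 597 past 1 log2 unit, and 8147 of the 8301 calls were shared in direction. It changed no call of the 183 named genes that were followed. Libraries of the same number correlated at 0.0777, -0.0899 and 0.0705 in their deviations from the group means. Not every library correlated best with its own number. With 3 libraries per group these small correlations cannot decide whether libraries of the same number were handled together.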

Other observations

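Some genes outside the groups above also lay apart, and are given as values chosen after they were seen. Trh, the precursor of thyrotropin-releasing hormone, averaged 363 ± 11.7 (SD, n = 3) FPKM in EpiLC, 248 ± 12.2 in Sirt1KO and 37.3 ± 2.26 in ESC (difference 0.55 ± 0.07). Car4, a membrane-bound carbonic anhydrase, averaged 28.5 ± 1.59 FPKM in EpiLC, 19.7 ± 7.04 in Sirt1KO and 0.0909 ± 0.0913 in ESC (difference 0.56 ± 0.18), a difference that was not called with a pseudocount of 0.1 (adjusted p = 0.155) or with only these 6 libraries (0.129). In both genes Sirt1KO and EpiLC were high and ESC low. Of 8 tested neuronal and glial markers 4 were called higher in EpiLC and 3 lower (beside 34.9% and 35.7% of all tested loci), with a median of 0.27. Of the higher ones 0 differed by 1 log2 unit or more, and all 3 lower ones did. The lower ones were the cytoskeletal genes Stmn2 (68.9 FPKM in EpiLC, 152 in Sirt1KO and 118 in ESC), Tubb3 (52.4, 116 and 207 FPKM) and Mtap2 (2.56, 6.75 and 6.5 FPKM). Of 4 tested muscle genes 3 were called lower (beside 35.7% of all tested loci). Tnni1, a slow troponin, averaged 0.177 FPKM in EpiLC, 2.66 in Sirt1KO and 0.195 in ESC.

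Xist, the RNA of X inactivation, was under the filter, at 0.651, 0.616 and 0.617 FPKM in EpiLC and 0.271, 0.203 and 0.208 FPKM in Sirt1KO. Promoters of loci that were not called held a median of 21 CpG in 300 bases. Those of genes higher in EpiLC by at least 1 log2 unit held 16, and those of genes lower by as much 15.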
